A study of Mus musculus with 4 samples.

Results

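Translation initiation factors (eIFs) and elongation factors (eEFs) were followed in soleus muscle of dystrophic mice. The members are all rows of the gene table whose symbol begins with Eif or Eef followed by a number, which gave 63 of 24054 listed genes. Of these, 61 passed the filter on low counts and were tested. The others were Eif4e1b, a germline relative of the cap-binding protein, with at most 1 count in any library, and the Y-linked Eif2s3y. Eif2s3y had 0 counts in all 4 libraries, where a count of 0 allows up to 3 counts per library, and the mice were female.

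All 4 libraries came from female *mdx* mice (strain C57BL/10ScSn-Dmd mdx/J), dystrophic through a dystrophin gene mutation, that entered the study at 8 weeks of age. The mCDC group (2 libraries) had received mouse cardiosphere-derived cells at passage 5, grown from a wild-type heart of the same background strain, by femoral vein once monthly. The vehicle group (2 libraries) had received the culture medium alone on the same schedule, and soleus muscles were taken at 12 months. All mCDCs descend from a heart of a single mouse, and with 2 libraries per group an exact permutation test of any single value cannot give a two-sided p below 0.333. Expected counts, in which a read that matches several transcripts is divided among them, summed to between 22481391 and 27187425 per library. The slow fiber markers Myh7, Myl2, Tnni1, Tnnt1, Tnnc1, Atp2a2 and Myl3 together made up between 73162 and 89748 CPM in every library, where CPM is the count scaled to a library total of 1e6, and soleus is a slow muscle. In bulk muscle, fewer cells of a type and less RNA per cell cannot be told apart.

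Protein synthesis begins when eIF2 brings the initiator tRNA to the small ribosomal subunit and eIF3 and the eIF4F cap-binding complex load it onto an mRNA. eIF2B recharges eIF2 with GTP, and kinases that phosphorylate eIF2 alpha block that step under stress. During elongation, eEF1A delivers aminoacyl-tRNAs, eEF1B recharges eEF1A, and eEF2 moves the ribosome along the message. Skeletal muscle is known for a switch after birth from the widely expressed eEF1A1 to eEF1A2, and for control of muscle mass through cap-dependent initiation.

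Both Eef1a1 with Eef1a2 and Eif4a1 with Eif4a2 are paralogs and carry the comparisons between near relatives below, so a coding stretch of each pair, of the length of a sequencing read (75 bases), is shown with differing bases in capitals. The coding sequences of Eef1a1 and Eef1a2 were 80.1% identical over 1389 aligned bases, and the longest identical run was 23 bases. Those of Eif4a1 and Eif4a2 were 77.7% identical over 1221 bases, with a longest run of 20. A whole read from the coding sequence therefore separates the members of either pair. The stretches are from GENCODE transcripts on GRCm38 (mm10, the build in the sample records), in coding exons, 5′ to 3′ on the coding strand: coding bases 169 to 243 of Eef1a1 (chr9:78480322-78480396, minus strand) and of Eef1a2 (chr2:181153732-181153806, minus strand), bases 73 to 147 of Eif4a1 (chr11:69670673-69670747, minus strand) and bases 76 to 150 of Eif4a2 (chr16:23108719-23108793, plus strand). They differ at 15 positions in the first pair and 17 in the second.
Eef1a1: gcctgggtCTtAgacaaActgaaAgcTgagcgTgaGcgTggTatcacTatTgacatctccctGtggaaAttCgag
Eef1a2: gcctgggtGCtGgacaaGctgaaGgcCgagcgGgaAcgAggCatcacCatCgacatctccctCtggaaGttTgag
Eif4a1: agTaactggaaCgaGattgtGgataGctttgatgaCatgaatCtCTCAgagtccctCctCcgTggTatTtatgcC
Eif4a2: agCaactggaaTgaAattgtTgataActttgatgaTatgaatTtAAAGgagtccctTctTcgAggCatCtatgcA

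Calls needed more than 1.5-fold change together with unadjusted p below 0.05, the thresholds of the study's methods. By them, 3 of 61 tested members were higher in mCDC muscles and 0 were lower. These were Eif4a1, Eef1e1 and Eif3j2. Over all 13652 genes tested, 1.26% were higher and 2.74% lower. At an unadjusted p under 0.05 alone, 5 members were higher (2.85% of all genes) and 0 were lower (4.09% of all genes), the further ones being Eif3d and Eif6. No member had an adjusted p under 0.05 (edgeR quasi-likelihood test, Benjamini-Hochberg over all genes), and the smallest was 0.664. The same test without mCDC replicate 1 gave 1 such member, Eif3j2, but there mCDC replicate 2 is the only mCDC library and is assumed to vary like the vehicle pair. Without mCDC replicate 2, 0 members were called, and without vehicle replicate 2 also 0. Without mCDC replicate 1, 6 were called, all higher.

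The tested members had a median log2 fold change of 0.12, against -0.01 for all genes tested, and 48 of 61 had a value above 0, against 48.4% of all genes. In 27 members both mCDC libraries lay above both vehicle libraries (19.2% of all genes), and in 4 both lay below (19.5%). These counts follow the scaling. Scaling used TMM factors (trimmed mean of M-values), which were 0.972 and 0.974 in mCDC muscle against 1.01 and 1.04 with vehicle. With library totals alone, the median was 0.04 against -0.09 for all genes, and 12 members lay above and 9 below, against 10.7% and 27.9% of all genes. As a share of all counts, the members took 1.39% in mCDC replicate 1, 1.499% in mCDC replicate 2, 1.44% in vehicle replicate 1 and 1.43% in vehicle replicate 2, so the groups overlapped.

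**Figure D1:**
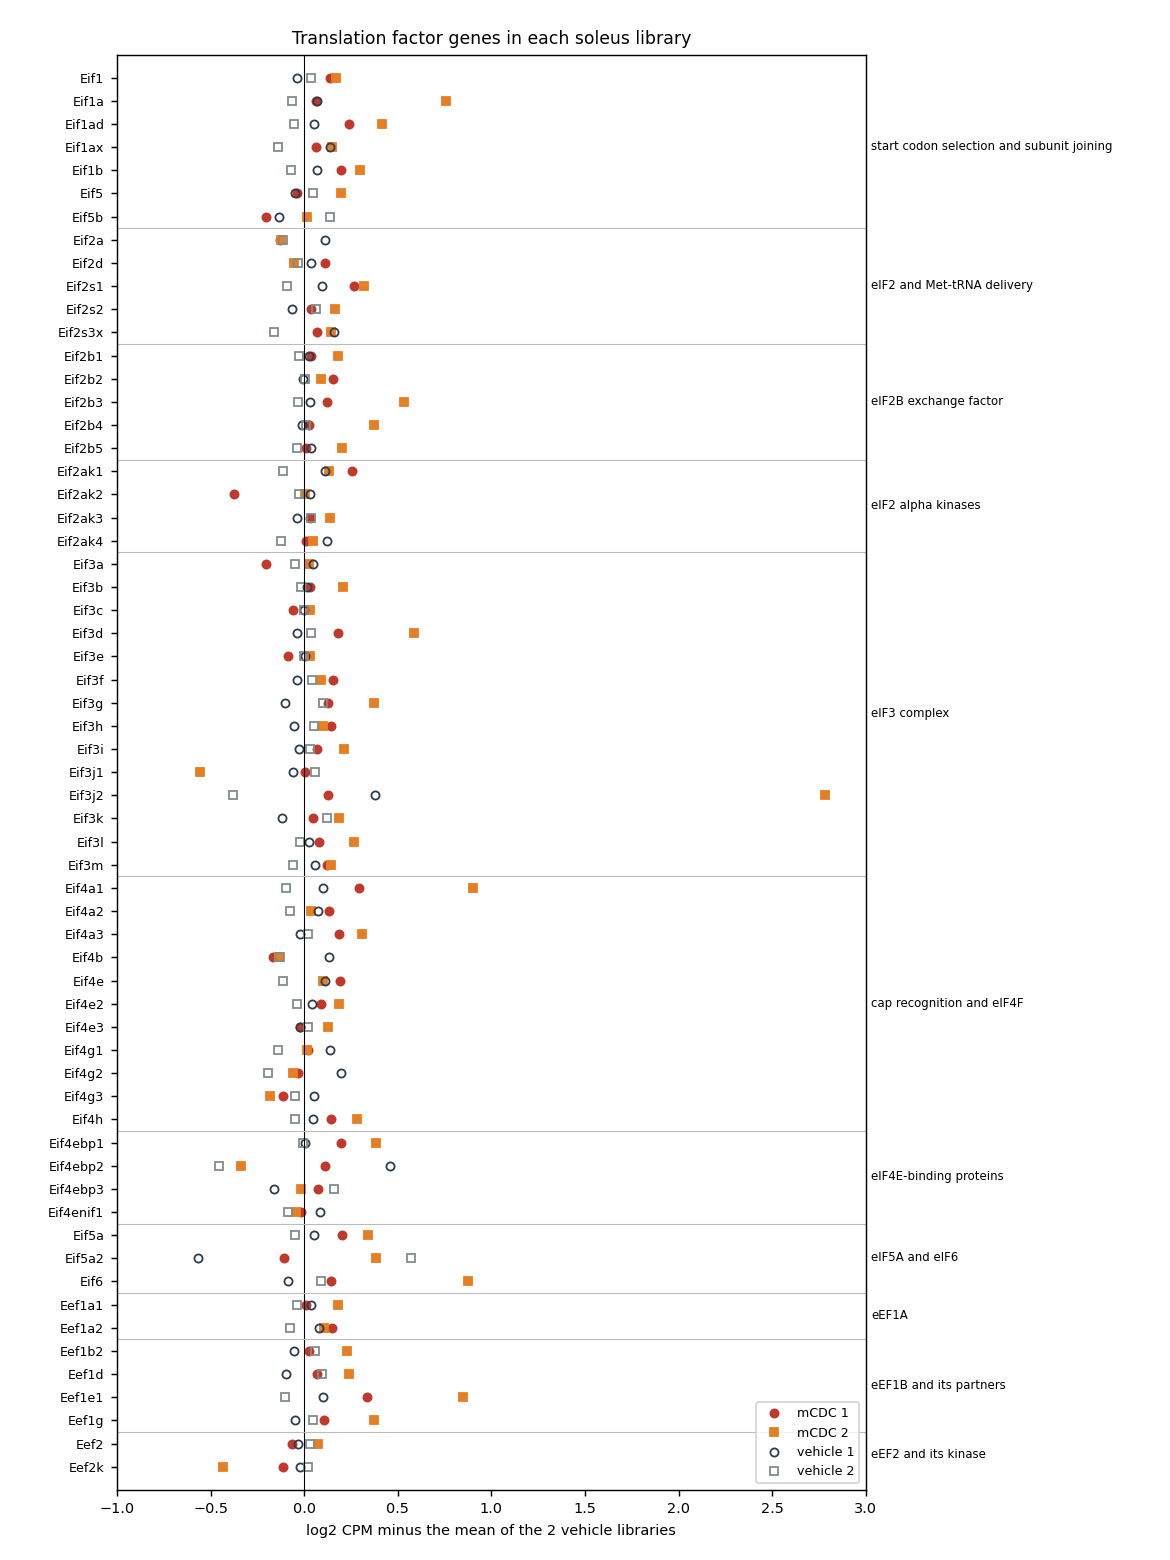
Each tested translation factor gene (rows, grouped by role) in the 4 libraries, as log2 CPM minus the mean of the 2 vehicle libraries; filled symbols are mCDC and open symbols vehicle. The orange squares of mCDC replicate 2 are the highest point in 37 of 61 rows, and that of Eif3j2 lies farthest to the right.

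The shift was uneven between the mCDC muscles. mCDC replicate 2 had the highest value in 37 of 61 members, where it was highest in 28.0% of all genes, and vehicle replicate 2 had the lowest in 29, where it was lowest in 27.2% of all genes. The median centered log2 level of the members was -0.006 in mCDC replicate 1, 0.10 in mCDC replicate 2, -0.05 in vehicle replicate 1 and -0.08 in vehicle replicate 2. The median log2 fold change was 0.06 when mCDC replicate 2 was left out and 0.17 when mCDC replicate 1 was. Vehicle replicate 2 also had the most endothelial signal, with 290.2 CPM summed over 6 markers against 129 to 161 in the other libraries, and the 7 fibro-adipogenic markers summed to 539 CPM there against 293 to 336. All 6 endothelial, all 6 adipocyte and all 7 fibro-adipogenic markers had a log2 fold change below 0. So had all 7 listed erythrocyte genes, which summed to 719 CPM in vehicle replicate 2 against at most 454 elsewhere. Of these, Hbb-bt and Hbb-b2 held identical counts in every library, so the 7 are not all separate and the sums include the same counts under both names. Of 5 tendon markers, Tnmd, Fmod and Comp were called lower (2.74% of all genes) and Scx higher (1.26%). The groups did not overlap for any of the 5, with mCDC below in 4 and above in 1, against 19.5% and 19.2% of all genes. The T and B cell markers summed to at most 1.25 CPM. Other markers stood apart in mCDC replicate 2. Myog, a regulator of muscle differentiation, had 32.6 and 63.3 CPM in mCDC muscle against 21.3 and 24.4 with vehicle, and Cd68, a macrophage marker, had 4.13 and 15.4 against 2.71 and 4.15. Both were called higher, as was Pax7 of satellite cells, at 2.99 and 2.88 CPM against 1.87 and 1.60. The summed lists of regenerating fiber (515 to 569 CPM) and macrophage markers (35.0 to 65.1) were not highest in mCDC replicate 2. Among 4 tested satellite cell markers, 3 had a log2 fold change above 0. Only Pax7 was called, with Cdh15 at 0.22, Myf5 at 0.03 and Chrdl2 at -0.15. In the regenerating fiber list 3 of 5 were below 0, with a median of -0.12, and only Myog was called. Of the 7 macrophage markers 5 were below 0, with a median of -0.25, and Csf1r was called lower (log2 fold change -0.67). The fast myosin gene Myh4 ran from 47.5 CPM in mCDC replicate 2 to 2096 in mCDC replicate 1. Fast fiber markers as a list of 9 varied less, with sums of 37296 and 31348 CPM in mCDC muscle against 30945 and 38302 with vehicle. The part of these markers in the members' levels was not tested. Without vehicle replicate 2 the median of the members was 0.12 against 0.01 for all genes, while 0 members were called, 0 were higher at an unadjusted p under 0.05 and 1, Eif4ebp2, was lower.

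eEF1A is encoded by Eef1a1, used by most tissues, and Eef1a2, the form of mature muscle and neurons. Eef1a2 had 2382 and 2308 CPM in mCDC muscle (replicates 1 and 2, the order used throughout) against 2264 and 2035 with vehicle. Eef1a1 had 1256 and 1412 CPM in mCDC muscle against 1280 and 1213 with vehicle. Both mCDC libraries lay above both vehicle libraries for Eef1a2 and the groups overlapped for Eef1a1, and neither passed the test. The log2 fold change was 0.13 (standard error 0.16, adjusted p = 0.862 from edgeR) for Eef1a2 and 0.10 (standard error 0.15, adjusted p = 0.890 from edgeR) for Eef1a1. With library totals the groups overlapped for both genes, at 0.05 for Eef1a2 and 0.02 for Eef1a1.

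Within each library, Eef1a2 had more counts than Eef1a1. The ratio of counts was 1.90 in mCDC replicate 1, 1.63 in mCDC replicate 2, 1.77 in vehicle replicate 1 and 1.68 in vehicle replicate 2. The 2 mCDC values enclosed the 2 vehicle values, and the means were 1.77 ± 0.19 (SD, n = 2) and 1.72 ± 0.06 (SD, n = 2). The difference in log2 ratio was 0.03 (exact permutation test, two-sided, p = 1), and leaving out each library in turn it ran from -0.08 to 0.14. Divided by transcript length (1794 bases for Eef1a1 and 2084 for Eef1a2), the ratio was 1.63, 1.41, 1.52 and 1.44 in the same order, so the muscle form stayed the more abundant per length. Eef1a1 counts were not whole numbers in any library, and 1.51% of its 75-base words occur in another listed gene, Gm6548, while Eef1a2 shared none and had whole counts throughout.

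**Figure D2:**
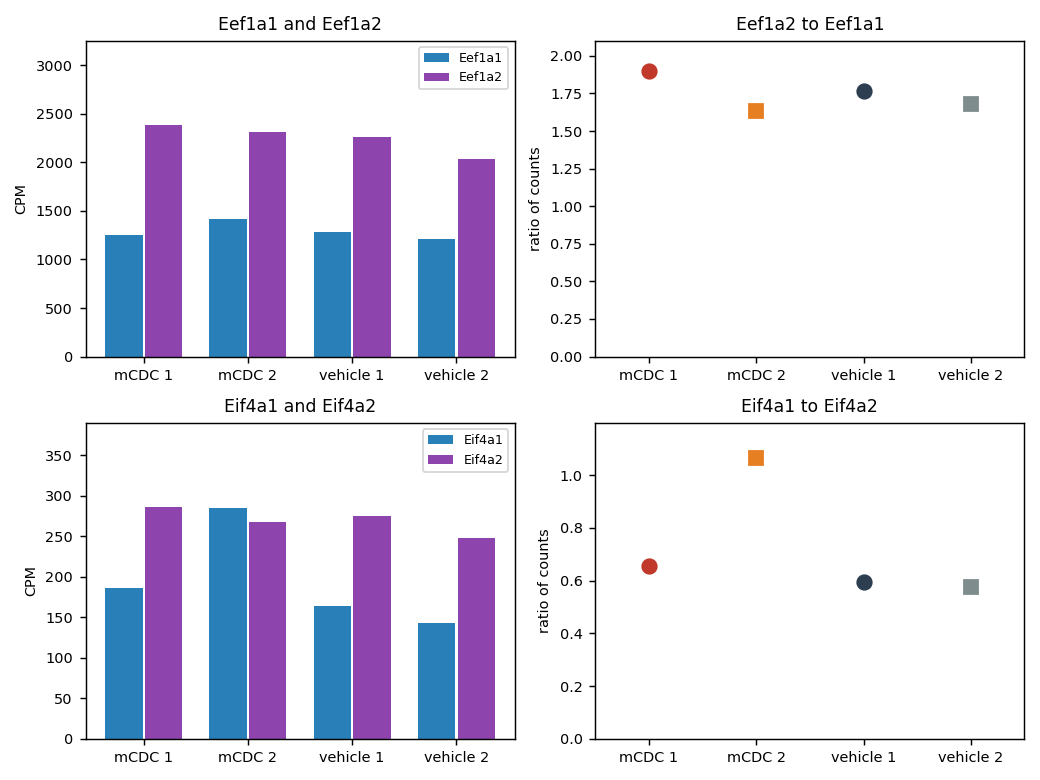
CPM of the paralogs Eef1a1 and Eef1a2 (top) and Eif4a1 and Eif4a2 (bottom) in each library, with the ratio of their counts at the right. The Eef1a2 to Eef1a1 ratio runs from 1.63 to 1.90 with both extremes in mCDC muscles, and the Eif4a1 to Eif4a2 ratio is 1.06 in mCDC replicate 2 and between 0.575 and 0.654 in the other libraries.

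Of the remaining elongation factors, eEF1B recharges eEF1A through the subunits encoded by Eef1b2, Eef1d and Eef1g. Eef1g had 742 and 892 CPM in mCDC muscle against 667 and 712 with vehicle, which did not overlap, and did not pass the test (log2 fold change 0.24, standard error 0.15, adjusted p = 0.763 from edgeR). Eef1b2 and Eef1d overlapped between the groups, at log2 fold changes of 0.13 and 0.15. Eef1e1 encodes a scaffold protein of the aminoacyl-tRNA synthetase complex rather than an exchange factor. It had 12.95 and 18.5 CPM in mCDC muscle against 11.0 and 9.57 with vehicle. Both mCDC values were above both vehicle values, and Eef1e1 was called higher by 1.52-fold (log2 fold change 0.61, standard error 0.22, adjusted p = 0.684 from edgeR). It was not called without mCDC replicate 2, at 0.33, without vehicle replicate 2, at 0.51, or with library totals, at 0.53.

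Eef2, the translocase, had 2369 and 2610 CPM in mCDC muscle against 2424 and 2538 with vehicle. The vehicle values lay inside the mCDC range, and the log2 fold change was 0.005 (standard error 0.16), with a sign that turned under several settings. Eef2k, the kinase that inhibits eEF2, had 44.0 and 35.3 CPM in mCDC muscle against 46.9 and 48.4 with vehicle. Both mCDC values were the lower ones, and the gene had the smallest p of the members below 0, without passing the test (log2 fold change -0.26, standard error 0.15, adjusted p = 0.747 from edgeR). The log2 fold change was -0.11 without mCDC replicate 2, -0.43 without mCDC replicate 1 and -0.11 with the trend in transcript length and GC content removed.

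eIF2, which carries the initiator tRNA, has alpha, beta and gamma subunits encoded by Eif2s1, Eif2s2 and Eif2s3x. Eif2s1 had 48.3 and 50.2 CPM in mCDC muscle against 42.8 and 37.7 with vehicle, which did not overlap (log2 fold change 0.29, standard error 0.14, adjusted p = 0.725 from edgeR). It was at 0.39, with an unadjusted p under 0.05, both without vehicle replicate 1 and with the length and GC trend removed, and at 0.20 without vehicle replicate 2. The groups overlapped for Eif2s2 and Eif2s3x, both at a log2 fold change of 0.10, and that of Eif2s3x was -0.05 without vehicle replicate 2. Eif2a, an alternative tRNA-binding initiation factor distinct from eIF2 alpha, stayed between 44.8 and 53.0 CPM, with both mCDC libraries below both vehicle libraries. Its log2 fold change was -0.13 (standard error 0.14), and it did not pass the test. It was at -0.008 without vehicle replicate 1 and at -0.24 without vehicle replicate 2.

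All 5 subunits of the exchange factor eIF2B, encoded by Eif2b1 to Eif2b5, had a log2 fold change above 0, between 0.11 and 0.34, and none passed the test. In 4 of them both mCDC libraries lay above both vehicle libraries, against 19.2% of all genes, and with library totals in 1, against 10.7%. Eif2b5, the catalytic subunit, was the exception, with 93.1 and 106 CPM in mCDC muscle against 94.9 and 90.3 with vehicle.

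The 4 kinases of eIF2 alpha sense different stresses, and none passed the test. Eif2ak1 (HRI, a heme-regulated kinase) had 54.5 and 49.9 CPM in mCDC muscle against 49.3 and 42.2 with vehicle (log2 fold change 0.19, standard error 0.15). Eif2ak3 (PERK, of the endoplasmic reticulum) stayed between 5.46 and 6.17 CPM in all libraries, and Eif2ak4 (GCN2, which senses uncharged tRNA) between 4.18 and 4.96. Their log2 fold changes were 0.08 and 0.02, with standard errors of 0.21 and 0.23. Eif2ak2 (PKR, activated by double-stranded RNA) had 7.16 and 9.32 CPM in mCDC muscle against 9.46 and 9.09 with vehicle.

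eIF3, the largest initiation complex, bridges the small subunit and the mRNA, and 14 of its genes were tested. Their median log2 fold change was 0.12, with 10 above 0, and 8 did not overlap between groups, all with the mCDC libraries above, against 19.2% of all genes above and 19.5% below. This count follows the scaling: with library totals, 2 lay above and 3 below, against 10.7% and 27.9% of all genes. Eif3d, whose product can itself bind the mRNA cap, had 91.2 and 121 CPM in mCDC muscle against 78.2 and 82.5 with vehicle. Both mCDC values were above both vehicle values, at a fold change of 1.32 (log2 0.40, standard error 0.16, adjusted p = 0.714 from edgeR), and its unadjusted p was under 0.05 without reaching 1.5-fold. Without mCDC replicate 2 its log2 fold change was 0.18. Eif3a, the scaffold subunit, had 266 and 311 CPM in mCDC muscle against 316 and 296 with vehicle. The groups overlapped, and its log2 fold change of -0.08 became 0.08 when each library's trend with transcript length and GC content was removed.

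The loosely bound eIF3j subunit has a pair of nearly identical genes, Eif3j1 and Eif3j2. Eif3j2 had 17.0 CPM in mCDC replicate 1, 107 in mCDC replicate 2, 20.2 in vehicle replicate 1 and 12.0 in vehicle replicate 2. Eif3j1 had 159, 108, 152 and 165 CPM in the same order. Eif3j2 was thus high, and Eif3j1 low, in mCDC replicate 2 alone, and mCDC replicate 1 lay inside or next to the vehicle range for both. Eif3j2 was called higher (log2 fold change 1.94, standard error 0.69, adjusted p = 0.684 from edgeR) although its groups overlapped, and Eif3j1 was not called, at -0.25.

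Of the 75-base words of Eif3j2, 87.4% also occur in Eif3j1, and of those of Eif3j1, 37.7% occur in Eif3j2. Most reads from Eif3j2 could thus be assigned to Eif3j1, and neither gene had a whole count in any library. Eif3j2 took 9.66% of their joint counts in mCDC replicate 1, 49.8% in mCDC replicate 2, 11.7% in vehicle replicate 1 and 6.77% in vehicle replicate 2. Summed, the pair had 176 and 215 CPM in mCDC muscle against 172 and 177 with vehicle. The groups overlapped, and the log2 fold change of the sum was 0.16 (adjusted p = 0.814 from edgeR). Eif3j2 had a log2 fold change of 0.08 without mCDC replicate 2 and was not called without vehicle replicate 1 or 2, at 2.37 and 1.61, with DESeq2, at 1.96, or with the replicate number as a block, at 1.46. With the pair summed, 2 members were called.

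**Figure D3:**
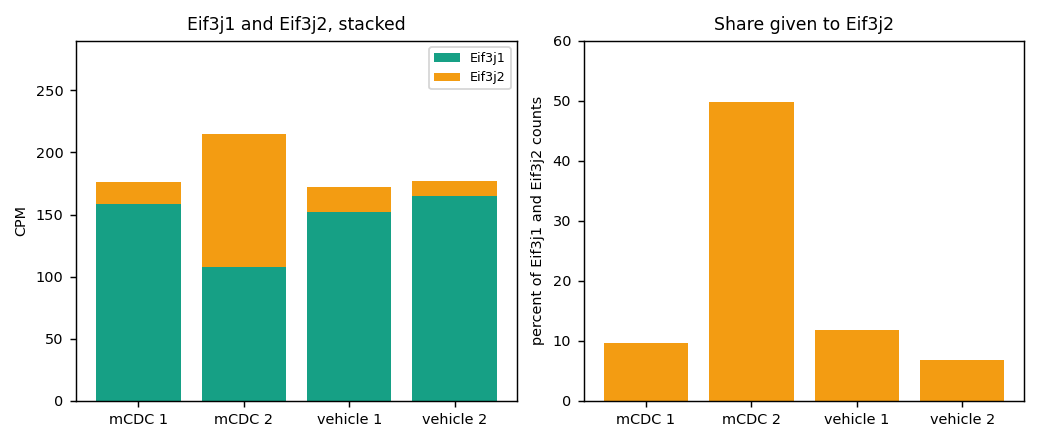
CPM of Eif3j1 and Eif3j2 stacked in each library (left) and the percent of their joint counts given to Eif3j2 (right). The stacked total is 172 to 177 CPM in 3 libraries and 215 in mCDC replicate 2, where the Eif3j2 share is 49.8% against at most 11.7% elsewhere.

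eIF4F recognizes the mRNA cap through eIF4E and unwinds the leader with the helicase eIF4A on the scaffold eIF4G. Eif4a1, the main helicase of proliferating cells, had 187 and 284 CPM in mCDC muscle against 163 and 142 with vehicle. Both mCDC values were above both vehicle values, with mCDC replicate 2 far from the rest, and Eif4a1 was called higher by 1.54-fold (log2 fold change 0.62, standard error 0.20, adjusted p = 0.664 from edgeR), the smallest p of all members. It was not called without mCDC replicate 2, at 0.29, without vehicle replicate 2, at 0.53, or with library totals, at 0.55.

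Its paralog Eif4a2 had 285 and 267 CPM in mCDC muscle against 274 and 247 with vehicle, and overlapped between the groups. The ratio of Eif4a1 to Eif4a2 counts, a comparison chosen after the values were seen, was 0.654 and 1.06 in mCDC muscle against 0.595 and 0.575 with vehicle. Its log2 difference was 0.51, with an exact permutation p of 0.333 (two-sided), the smallest that 2 against 2 can give, and it ran from 0.16 (mCDC replicate 2 left out) to 0.86 (mCDC replicate 1 left out). The related helicase Eif4a3, a core protein of the exon junction complex, had a log2 fold change of 0.25 and did not pass the test.

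Eif4e, the cap-binding protein, had 78.5 and 73.7 CPM in mCDC muscle against 74.4 and 63.7 with vehicle, which overlapped (log2 fold change 0.14, standard error 0.14). It was at 0.03 without vehicle replicate 2, and at 0.31, with an unadjusted p under 0.05, once the length and GC trend was removed. Eif4g1, the scaffold, had 861 and 858 CPM in mCDC muscle against 935 and 770 with vehicle. The mCDC values lay between the vehicle values, and the log2 fold change was 0.01 (standard error 0.15). Eif4b, a helicase cofactor, had 355 and 362 CPM in mCDC muscle against 436 and 364 with vehicle. Eif4b and the scaffold Eif4g3 had both mCDC values under both vehicle values, at log2 fold changes of -0.16 and -0.15, and did not pass the test. Without vehicle replicate 1 Eif4b was at -0.02, and with the length and GC trend removed Eif4g3 was at -0.008.

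The eIF4E-binding proteins hold eIF4E away from eIF4G until mTORC1 phosphorylates them. Eif4ebp1 had 70.9 and 80.7 CPM in mCDC muscle against 62.2 and 61.7 with vehicle, which did not overlap (log2 fold change 0.29, standard error 0.14, adjusted p = 0.724 from edgeR). Eif4ebp2 had the widest spread of the 3 genes, with 50.6 and 37.1 CPM in mCDC muscle against 64.4 and 34.2 with vehicle. Its log2 fold change was -0.17 (standard error 0.28), and 0.36 without vehicle replicate 1. Eif4ebp3 lay between 7.25 and 9.06 CPM in all libraries.

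Eif5a encodes the hypusine-bearing factor that helps ribosomes past stalling peptides. It had 470 and 518 CPM in mCDC muscle against 424 and 394 with vehicle, which did not overlap (log2 fold change 0.27, standard error 0.14, adjusted p = 0.728 from edgeR). Its isoform Eif5a2 was near the limit of detection, with 18 and 21 counts in mCDC muscle against 13 and 30 with vehicle, so that no difference was detectable at this depth. Eif6, which keeps the large ribosomal subunit from joining too early, had 42.0 and 69.6 CPM in mCDC muscle against 35.8 and 40.4 with vehicle. Both mCDC values were above both vehicle values, at a fold change of 1.46 (log2 0.55, standard error 0.23, adjusted p = 0.714 from edgeR), below the threshold of 1.5. Without mCDC replicate 2 its log2 fold change was 0.14.

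Among the factors of start codon selection and subunit joining, none of 7 passed the test. Eif1, which holds the scanning complex open, had 432 and 443 CPM in mCDC muscle against 384 and 404 with vehicle, which did not overlap (log2 fold change 0.15, standard error 0.13). The group ran from -0.10 for Eif5b, the subunit joining GTPase, to 0.45 for Eif1a, which had 14.4 and 23.3 CPM in mCDC muscle against 14.4 and 13.1 with vehicle.

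**Figure D4:**
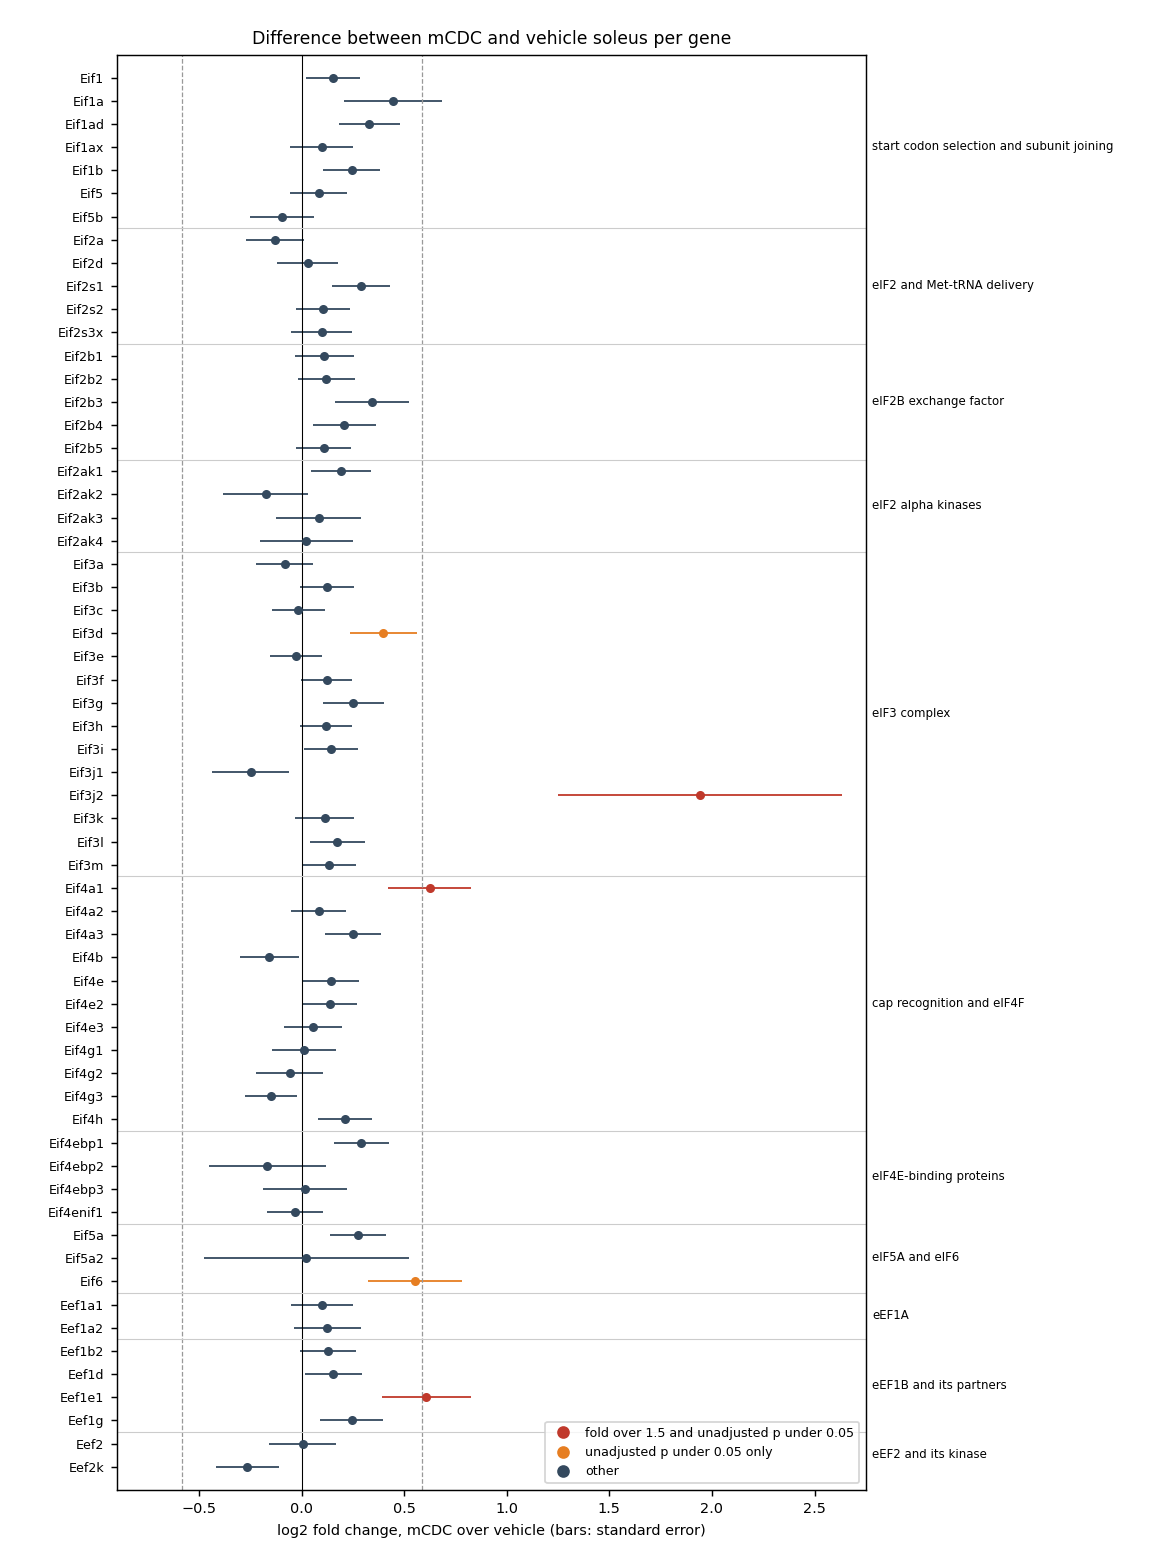
Log2 fold change of mCDC over vehicle soleus for each tested member, grouped by role, with standard errors as bars; dashed lines mark a fold change of 1.5 in each direction. The 3 red points to the right of the dashed line are Eif4a1, Eef1e1 and Eif3j2, and the other 58 lie within it.

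Levels between genes were compared per length, as TPM, which is CPM divided by the length of 1 transcript per gene and rescaled to a sum of 1e6. Eef1a2 was the most abundant member, with 2066 to 2379 TPM over the 4 libraries. Eef2 followed at 1524 to 1738 TPM and Eef1a1 at 1391 to 1563, and these ranges overlapped, although within each library Eef2 lay above Eef1a1. The range of Eef1a2 lay above both. Eef1g came next at 784 to 938 TPM, and Eif1 and Eif5a, at 635 to 656 and 581 to 707 TPM, overlapped each other. The translocase and the tRNA carriers thus stood above every initiation factor.

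Subunits of a complex were not listed at equal levels. Within eIF2, the mean over 4 libraries was 27.01 TPM for Eif2s1, 138 for Eif2s2 and 103 for Eif2s3x. Within eIF2B, means ran from 31.2 TPM for Eif2b1 to 82.2 for Eif2b4. Within eIF3, leaving out the Eif3j pair, they ran from 91.1 TPM for Eif3m to 248 for Eif3h, and Eif4e, at 30.0 TPM, stood well below Eif4g1, at 325. The kinases Eif2ak2, Eif2ak3 and Eif2ak4 had means of 4.20, 2.63 and 1.82 TPM. The transcript lengths are those of the annotation and not of the isoforms these muscles use, which limits such comparisons.

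Other genes of the pathway were read from lists of related genes. Of 7 tested release and recycling factors, 9 poly(A) and TOP mRNA binding proteins, 12 mitochondrial translation factors and 15 modifiers of these factors, 0 were called and 0 had an unadjusted p under 0.05 (edgeR), with medians of 0.15, 0.005, 0.05 and 0.16. Pabpc1, the cytoplasmic poly(A)-binding protein, had 157 and 210 CPM in mCDC muscle against 148 and 174 with vehicle, which overlapped, and its log2 fold change of 0.19 was -0.03 without mCDC replicate 2. Against 1.26% of all genes higher and 2.74% lower, 0 of 23 mTORC1 and S6 kinase genes were called higher and 1 lower. It was Castor1, an arginine sensor listed as Gatsl3, which was lower at 1.70 and 1.37 CPM against 2.44 and 2.62 (log2 fold change -0.71, standard error 0.29, adjusted p = 0.714 from edgeR), and was not called with any 1 library left out, with DESeq2 or with the replicate block. Mtor, the kinase itself, was at -0.11 on the same scale, and at 0.05 with the length and GC trend removed.

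The targets of the integrated stress response, the program set off when eIF2 alpha is phosphorylated, held the most calls, with 3 of 21 higher and 2 lower, against 1.26% and 2.74% of all genes. Atf4, its central transcription factor, had 281 and 384 CPM in mCDC muscle against 251 and 271 with vehicle, which did not overlap, and did not pass the test (log2 fold change 0.35, standard error 0.17, adjusted p = 0.725 from edgeR). Atf3, a stress-induced transcription factor, was higher, with 21.6 and 59.98 CPM in mCDC muscle against 14.0 and 11.8 with vehicle (log2 fold change 1.65, standard error 0.41, adjusted p = 0.567 from edgeR). Ppp1r15a, a phosphatase subunit that reverses eIF2 alpha phosphorylation, was higher, with 54.3 and 97.7 CPM against 49.4 and 42.6, and so was Psat1, of serine synthesis, with 7.23 and 9.50 against 4.88 and 4.47. Without mCDC replicate 2 the log2 fold changes were 0.74 for Atf3, which was still called, 0.24 for Ppp1r15a, 0.63 for Psat1 and 0.11 for Atf4, and none of the last 3 was called. Ppp1r15a was not called without vehicle replicate 2 either, at 0.62.

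Ddit4, an inhibitor of mTORC1, was lower, with 6.32 and 6.08 CPM in mCDC muscle against 27.8 and 12.8 with vehicle (log2 fold change -1.71, standard error 0.34, adjusted p = 0.462 from edgeR). Without vehicle replicate 1 it was still called, at -1.04. Chac1, a glutathione-degrading enzyme, was lower, with 8.10 and 4.98 CPM against 14.4 and 16.8 (log2 fold change -1.25, standard error 0.25, adjusted p = 0.462 from edgeR). The adjusted p from DESeq2 was 0.00056 for Ddit4 and 0.0125 for Chac1, and 0.856 for Atf3. The called targets of this response thus moved in both directions, and their list had a median of 0.13, close to that of the translation factors.

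**Figure D5:**
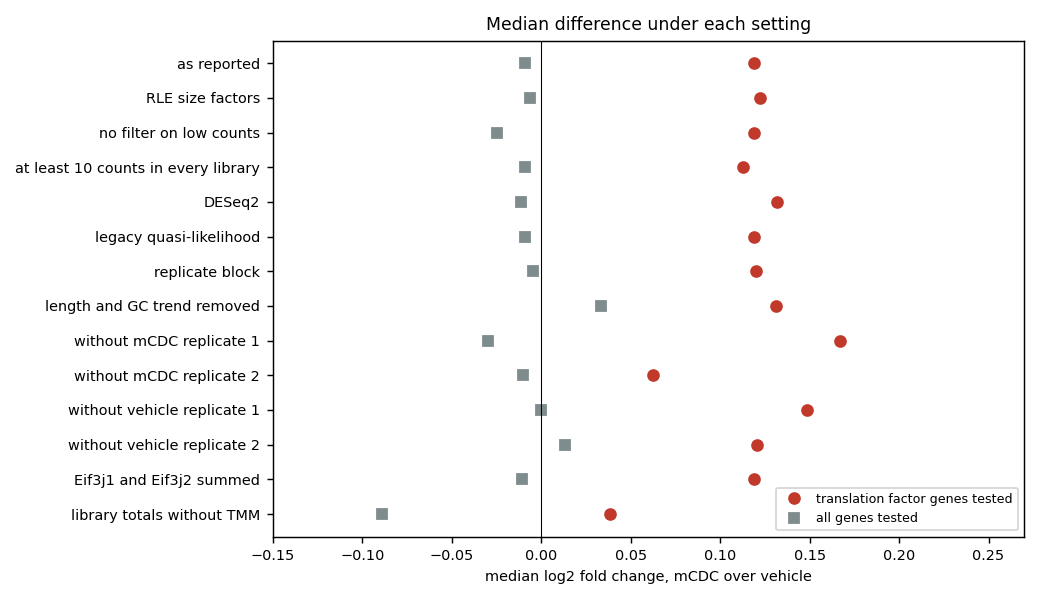
Median log2 fold change of the tested translation factor genes (circles) and of all genes tested (squares) under each setting. The circles stay above 0 and to the right of the squares in every row, and they move most without mCDC replicate 2 (0.06) and with library totals (0.04).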

How the data were processed

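Soleus RNA from *mdx* mice (2 mCDC and 2 vehicle libraries) was sequenced as 75-base single-end reads. The authors mapped the reads to a UCSC transcript set (mm10) with Bowtie2 2.1.0 and deposited RSEM 1.2.15 expected counts per gene without normalization, per the labels and the study's methods. Of the deposited expected counts, 15.7% were not whole. Whether counting used strand is not given in the sources used here. The methods and the sample records name different library kits.

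Expected counts were rounded and tested over the whole table with edgeR 4.0.16 in R 4.3.3 (filterByExpr, TMM, quasi-likelihood F-test with legacy = FALSE), and p-values were adjusted by Benjamini-Hochberg over 13652 genes. Standard errors were taken as |log2 fold change| over √F. CPM are TMM-scaled. TPM and the removal of a length and GC trend (mgcv 1.9.3 splines) used 1 GENCODE transcript per gene, and 63 of 63 members were paired. Shared words are 75-base stretches found in transcripts of other listed genes. They were found in 7 members, and 8 members share words with the opposite strand of another gene. Alternatives were RLE size factors, library totals, other count filters, DESeq2 1.42.0, the legacy test, a replicate block, the trend removal, summing Eif3j1 with Eif3j2, and leaving out each library.

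The members, lists and tests were chosen with earlier results of these data known. Named members are those with unadjusted p under 0.05, the 5 smallest p in each direction, the highest CPM of each of 11 role groups, and a set of central factors, 29 in all; others are named as examples. The labels do not say that replicates are separate animals. P-values and standard errors therefore measure only the spread between these samples, which may be technical. That spread exceeded counting error in both groups (chi-square per gene 41.0 in the mCDC pair and 39.9 in the vehicle pair). The floor of 3 counts for a count of 0 covers counting error alone. The fitting steps were tested on simulated data.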

Additional observations from a re-analysis of the deposited data

How the results depend on the processing

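With 2 libraries per group, calls hung on single libraries. The number of members called ran from 0 (without mCDC replicate 2, and without vehicle replicate 2) to 6 (without mCDC replicate 1), and was 1 with library totals. The number with an unadjusted p under 0.05 ran from 0 (without mCDC replicate 2) to 8 (without mCDC replicate 1), and was 3 with library totals. The median log2 fold change of the members ran from 0.062 (without mCDC replicate 2) to 0.167 (without mCDC replicate 1), and was 0.038 with library totals. Over all genes, 349 (without mCDC replicate 2) to 1107 (without vehicle replicate 1) were called, and of the related genes 3 (without mCDC replicate 2) to 10 (without mCDC replicate 1). With the length and GC trend removed, 213 genes were higher and 288 lower, against 172 and 374, and with library totals 121 were higher and 508 lower; the same 3 members were called with the trend removed. The sum of Eif3j1 and Eif3j2, the use of library totals and the Eif4a1 to Eif4a2 ratio, with libraries left out, were chosen after seeing the data.

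The replicate numbers share no stated batch, and deviations of same-numbered libraries correlated at -0.039. With the replicate number as a block, 2 members were called, 4 had an unadjusted p under 0.05 and the median was 0.12. DESeq2 called 2 members, and 48 of all genes, among them Ddit4 and Chac1, but 0 members had an adjusted p under 0.05. Without mCDC replicate 1, 91 genes and 1 member (Eif3j2) had an edgeR adjusted p under 0.05, with the spread taken from the vehicle pair alone.

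Of the 26 named members not called, 22 had a log2 fold change that moved by over 1.5 times or changed sign when 1 library was left out, 16 with the trend removed and 16 with library totals. The log2 fold changes of the following genes changed sign, and the cause was not tested. Eef2 was at -0.0016 with at least 10 counts in every library, -0.0056 with the trend removed and -0.075 with library totals, and leaving out each library in turn ran from -0.066 to 0.074. With library totals Eif2ak4 was at -0.055, Eif4ebp3 at -0.064, Eif4g1 at -0.066 and Eif5a2 at -0.059. With the trend removed Eif3a was at 0.075, Mtor at 0.048 and Eif4ebp3 at -0.021. Leaving out each library in turn, Eif2ak4 ran from -0.097 to 0.15, Eif2s3x ran from -0.054 to 0.27, Eif3a ran from -0.20 to 0.028, Eif3j1 ran from -0.55 to 0.0057, Eif4ebp2 ran from -0.55 to 0.36, Eif4ebp3 ran from -0.13 to 0.19, Eif4g1 ran from -0.12 to 0.16, Pabpc1 ran from -0.033 to 0.38 and Eif5a2 ran from -0.42 to 0.71.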
